A study of Homo sapiens with 8 samples.

Results

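The genes examined here are the WNT ligands, their receptors and antagonists, and the genes that close the pathway's feedback loops, in MP38 cells. They were taken from the deposited count table by symbol: every WNT, FZD, DKK and SFRP gene, plus LRP5, LRP6, AXIN2, LEF1, TCF7, NKD1, NKD2, RNF43, ZNRF3 and WIF1. The rule gave 47 of the 35238 symbols: 19 ligands, 10 frizzled receptors, 2 co-receptors, 9 secreted antagonists, 3 intracellular feedback genes, 2 membrane ubiquitin ligases and 2 nuclear factors. MP38 is an established uveal melanoma (UM) line that carries a BAP1 mutation. The cells were exposed for 24 h to 40 nM romidepsin, 40 nM quisinostat or 1200 nM mivebresib, and the controls to the 0.1% DMSO vehicle. Romidepsin and quisinostat inhibit histone deacetylases (HDAC), the enzymes that remove acetyl groups from histones, and mivebresib blocks the bromodomains by which BET proteins bind acetylated histones. Strand-specific bulk RNA sequencing gave 2 libraries for each of the 4 groups, from wells of this same line, so the p-values below measure the spread between wells.

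WNT proteins are secreted lipid-modified ligands that bind a frizzled receptor on the cell surface. Together with the co-receptors LRP5 and LRP6, a bound frizzled receptor keeps beta-catenin from being degraded, and beta-catenin then acts with TCF and LEF factors on target genes, while other ligand and receptor pairs act on cell polarity and movement without beta-catenin. SFRP proteins and WIF1 bind the ligands, DKK1 binds the co-receptors, RNF43 and ZNRF3 remove frizzled receptors from the membrane, and AXIN2, NKD1 and NKD2 damp the signal inside the cell. The pathway directs neural crest cells, from which melanocytes arise, towards the pigment lineage.

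The libraries were of even depth, from 28483235 to 29359024 counts. The 2 control libraries stood further apart than the libraries of any drug group (chi-square per degree of freedom 58.1 against 9.52 to 9.79), and the members were part of that gap: 24 of the 35 members that could be tested were higher in control library 2, at a median ratio of 1.22 against 1.00 over all tested genes. Of 11 melanocyte markers, 10 passed the filter on low counts and their summed level was 3893 to 5865 normalised counts (CPM, scaled to the library's total), although DCT had at most 5 counts in any library. The 6 fibroblast markers summed to 1.98 and 2.48 CPM in the control, 4.24 and 5.46 with romidepsin, 8.44 and 10.9 with quisinostat, and 1.28 and 1.76 with mivebresib. COL1A1 made up most of that sum, LUM had at most 1 count in any library, and the part of these genes in the results below was not tested. In bulk RNA, fewer cells of a type and less RNA per cell cannot be told apart.

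The sequence upstream of the transcription start was available from RefSeq (GRCh38.p14) for 31 of the 47 members, in 36 windows of 250 bases. The windows of members were rich in G and C, with a median of 69.8% against 58.0% over all 35116 windows of the same length, and with a median of 22.5 CpG against 11. The GC box GGGCGG (or CCGCCC on the other strand) was in 28 of the 36 windows (77.8%) and in 42.6% of all windows. The TCF/LEF core CTTTGA (or TCAAAG) was in 1 of the 36 (2.78%) and in 11.2% of all windows, the TATA box TATAAA (or TTTATA) in 4 (11.1%) and 10.7%, and the E-box CACGTG in 0 and 6.34%. The 6 windows below are examples from different roles. All are of members among those with the largest changes with a drug, and other members with large changes are not shown. They include DKK1, the tested antagonist that fell most with mivebresib, and WNT6 and WNT3A, ligands that appeared with quisinostat. The others are WNT9A, FZD8 and FZD9, a ligand and 2 receptors that rose with mivebresib. Each is written 5′ to 3′ on the strand of its gene and ends at the base before the RefSeq start.

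DKK1 (chr10:52314031-52314280, plus strand, 62.8% G and C, with both TCF/LEF cores in capitals):
DKK1: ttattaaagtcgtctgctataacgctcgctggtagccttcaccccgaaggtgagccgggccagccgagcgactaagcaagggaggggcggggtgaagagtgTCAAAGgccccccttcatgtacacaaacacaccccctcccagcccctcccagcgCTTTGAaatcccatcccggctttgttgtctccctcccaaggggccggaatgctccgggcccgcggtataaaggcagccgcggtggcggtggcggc
WNT6 (chr2:218859555-218859804, plus strand, 79.2% G and C, with 6 GC boxes in capitals):
WNT6: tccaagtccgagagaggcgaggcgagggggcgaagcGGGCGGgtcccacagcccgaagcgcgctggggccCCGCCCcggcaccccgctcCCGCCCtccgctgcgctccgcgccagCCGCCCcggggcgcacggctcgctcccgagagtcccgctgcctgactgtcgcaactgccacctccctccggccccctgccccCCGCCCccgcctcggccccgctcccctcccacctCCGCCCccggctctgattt
WNT3A (chr1:228006748-228006997, plus strand, 86.0% G and C, with 5 GC boxes in capitals):
WNT3A: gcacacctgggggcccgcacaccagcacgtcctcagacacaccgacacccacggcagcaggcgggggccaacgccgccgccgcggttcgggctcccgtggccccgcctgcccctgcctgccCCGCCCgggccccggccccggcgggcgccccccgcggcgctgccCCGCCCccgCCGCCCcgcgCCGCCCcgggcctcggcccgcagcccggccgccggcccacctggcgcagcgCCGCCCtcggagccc
WNT9A (chr1:227947933-227948182, minus strand, 84.4% G and C, with 3 GC boxes in capitals):
WNT9A: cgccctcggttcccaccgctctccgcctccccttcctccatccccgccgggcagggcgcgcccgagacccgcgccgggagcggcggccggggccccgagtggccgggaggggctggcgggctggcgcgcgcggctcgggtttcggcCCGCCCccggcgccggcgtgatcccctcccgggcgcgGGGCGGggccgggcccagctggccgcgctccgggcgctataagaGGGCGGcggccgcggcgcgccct
FZD8 (chr10:35642297-35642546, minus strand, 65.2% G and C, with 3 GC boxes in capitals):
FZD8: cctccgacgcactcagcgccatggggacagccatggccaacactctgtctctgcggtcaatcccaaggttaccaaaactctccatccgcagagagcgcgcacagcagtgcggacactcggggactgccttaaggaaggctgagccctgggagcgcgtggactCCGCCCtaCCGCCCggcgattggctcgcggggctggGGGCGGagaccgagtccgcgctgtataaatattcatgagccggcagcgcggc
FZD9 (chr7:73433528-73433777, plus strand, 72.4% G and C, with 2 GC boxes in capitals):
FZD9: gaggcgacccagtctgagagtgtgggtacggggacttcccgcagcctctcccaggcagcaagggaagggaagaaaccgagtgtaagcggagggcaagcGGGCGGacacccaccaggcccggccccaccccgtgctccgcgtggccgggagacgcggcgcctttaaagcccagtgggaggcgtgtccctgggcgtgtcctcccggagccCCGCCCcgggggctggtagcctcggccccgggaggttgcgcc

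DKK1 held the only TCF/LEF core among the windows of members. The cores began 149 and 95 bases before the start, the first as TCAAAG and the second as CTTTGA. Ligands that were nearly silent in the control differed in GC boxes, with 6 for WNT6, 5 for WNT3A, 2 for WNT10A and 0 for WNT8B, whose window held 45.2% G and C. A match describes the letters and is not evidence that a factor binds there.

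MP38 cells given the vehicle expressed 2 antagonists, SFRP1 and DKK1, and the receptor FZD7 far more than any ligand, while several other receptors lay below the most abundant ligand. Per length of exon, as normalised counts scaled to exon length (RPKM), the most abundant member was SFRP1, at 144 ± 28.3 (SD, n = 2), followed by DKK1 at 129 ± 26.8. The difference between these 2 was smaller than their spread between libraries, but SFRP1 was the higher in both control libraries. FZD7, a frizzled receptor, followed at 26.9 ± 7.08, LRP6 at 5.73 ± 1.58, FZD2 at 5.43 ± 0.202, FZD6 at 4.62 ± 0.876 and FZD1 at 3.42 ± 0.352. The most abundant ligand was WNT5B at 3.22 ± 0.655, ahead of WNT7B at 1.51 ± 0.0177, WNT3 at 1.29 ± 0.216 and WNT10B at 1.16 ± 0.0233. The summed level of the 19 ligands was 37.3 and 43.4 CPM in the control libraries, that of the 10 frizzled receptors 178 and 241 CPM, and that of the 9 secreted antagonists 849 and 1123 CPM.

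**Figure D1:**
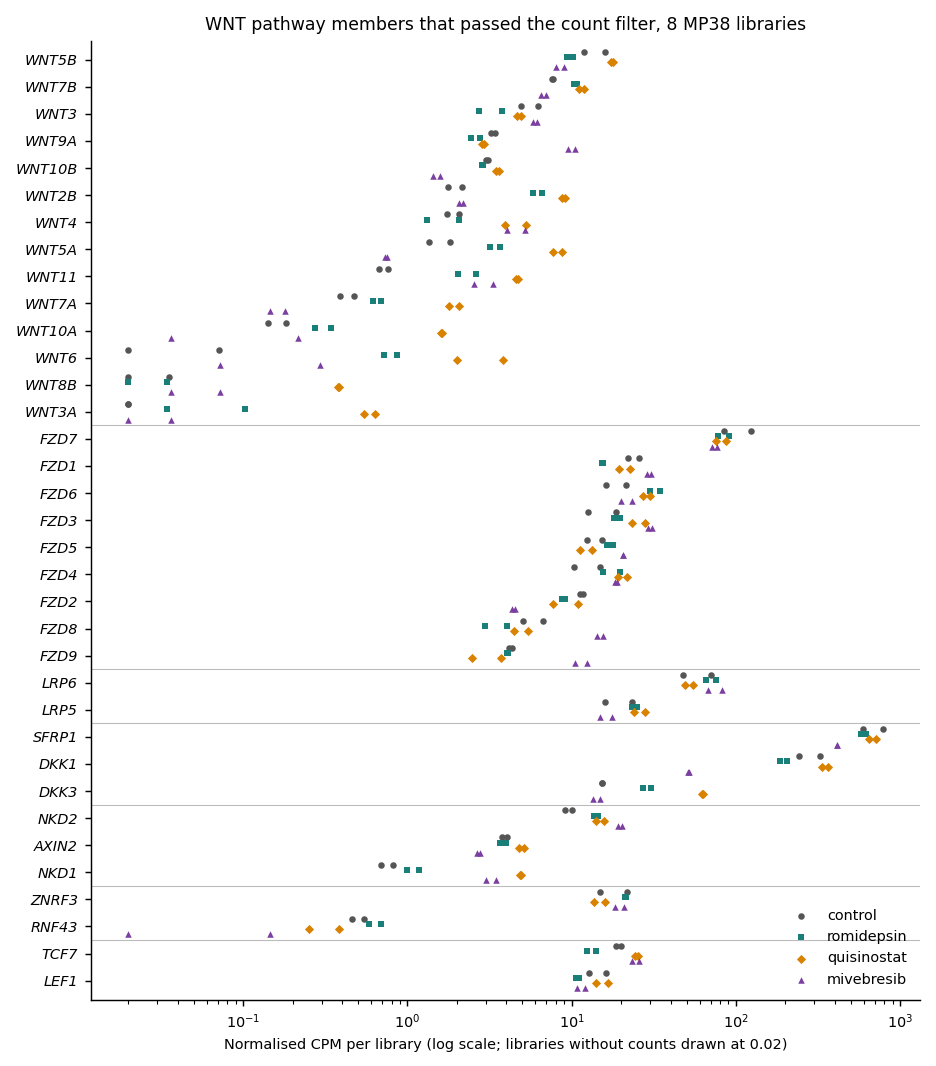
Normalised CPM (log axis) of the 35 members that passed the count filter, 1 point per library, with the ligands at the top and frizzled receptors, co-receptors, secreted antagonists, feedback genes, membrane ligases and nuclear factors below, separated by grey lines. SFRP1 and DKK1 lie furthest right in the control, and the lower ligands spread most between groups.

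In the count table, 12 of the 47 members did not pass the filter and were not tested: DKK2, DKK4, FZD10, SFRP2, SFRP4, SFRP5, WIF1, WNT1, WNT16, WNT2, WNT8A and WNT9B. None of them had more than 11 counts in any library, and WNT8A had none in any. SFRP4, a secreted antagonist, had 2 and 0 counts in the control and 8 and 11 with quisinostat, a ratio of 8.39 (95% counting interval 2.02 to 74.2, which covers counting error only). DKK2 had 1 and 0 counts in the control, 6 and 10 with quisinostat (ratio 14.1, interval 2.19 to 592), 6 and 4 with romidepsin (ratio 9.56, interval 1.36 to 415), and 0 in both mivebresib libraries. WNT2 had counts only with quisinostat, 5 and 6, at least 3.24-fold over the 3 counts that an empty control group allows. WIF1 had 2 counts in 1 quisinostat library and 0 elsewhere. Among the 35 tested members, WNT10A, WNT3A, WNT6 and WNT8B had too few control counts to pass the filter on their own and passed through a drug group, so counts of changed members are also given for the other 31, or for the other 10 ligands.

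With quisinostat, every member that passed the threshold was higher than in the control. Of the 35 tested members, 17 rose (48.6%, against 28% of all 15085 tested genes) and 0 fell (against 25.1%), by the quasi-likelihood test of edgeR at a Benjamini-Hochberg adjusted p below 0.05. At an unadjusted p below 0.05, 20 were higher and 0 lower. Without the 4 members that passed the filter through a drug group, 13 of 31 rose (41.9%) and 0 fell, and of the ligands 6 of 10 rose. The shares of all genes, here and below, still include genes that passed the filter in this way and were not recomputed without them. With the study's second threshold, a log2 fold change (log2 FC) beyond 1.5, 10 rose (28.6%, against 11.2% of all genes) and 0 fell (against 1.03%), or 6 and 0 of the other 31, and 0 of the 35 were lower at an unadjusted p below 0.05. DESeq2 gave 17 and 0 at an adjusted p below 0.05, with 1 lower unadjusted, and limma-voom gave 18 and 0, also with 0 lower unadjusted, but limma-voom with quantile normalization gave 16 higher and 7 lower (9 lower unadjusted), and 1 lower with both thresholds. The median log2 FC of all genes with quisinostat was -0.0036 with the TMM scaling used here and 0.20 with library size alone, so the changes are relative to the bulk of genes. Leaving out control replicate 1 gave 3 lower members and leaving out quisinostat replicate 2 gave 2.

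Romidepsin, at the same concentration, changed fewer members and in both directions. Of the 35, 8 rose (22.9%, against 15.2% of all genes) and 6 fell (17.1%, against 15.8%), by the same edgeR test. Without the 4 members that passed the filter through a drug group, 7 of 31 rose and 6 fell. With both thresholds, 3 rose (against 3.77%) and 0 fell (against 0.312%), or 2 and 0 of the other 31, and DESeq2, limma-voom and the same with quantile normalization also gave 0 lower, adjusted or unadjusted. The count of higher members was 14 without control replicate 2, and that of lower members was 3 without romidepsin replicate 1 and 2 without romidepsin replicate 2. With both thresholds, 1 was higher without romidepsin replicate 1.

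Mivebresib changed 22 members, in both directions. Of the 35, 12 rose (34.3%, against 22.2% of all genes) and 10 fell (28.6%, against 24.1%), by the same edgeR test, and the same 12 and 10 stood among the 31. With both thresholds, 3 rose (against 3.96%) and 2 fell (against 4.36%), none of them among those 4. Leaving out mivebresib replicate 2 left 6 lower members, and 1 with both thresholds. Over the 4 groups together, 32 of the 35 differed in the quasi-likelihood F test of edgeR at an adjusted p below 0.05 (91.4%, against 74.2% of all genes), and so did 28 of the other 31. The median log2 FC of the tested members was 0.37 with quisinostat, 0.26 with romidepsin and 0.11 with mivebresib, against -0.0036, -0.012 and 0.0067 for all genes, and it moved with the control library left out. Without control replicate 1 it was 0.30, 0.037 and -0.022, and without control replicate 2 it was 0.55, 0.46 and 0.29.

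**Figure D2:**
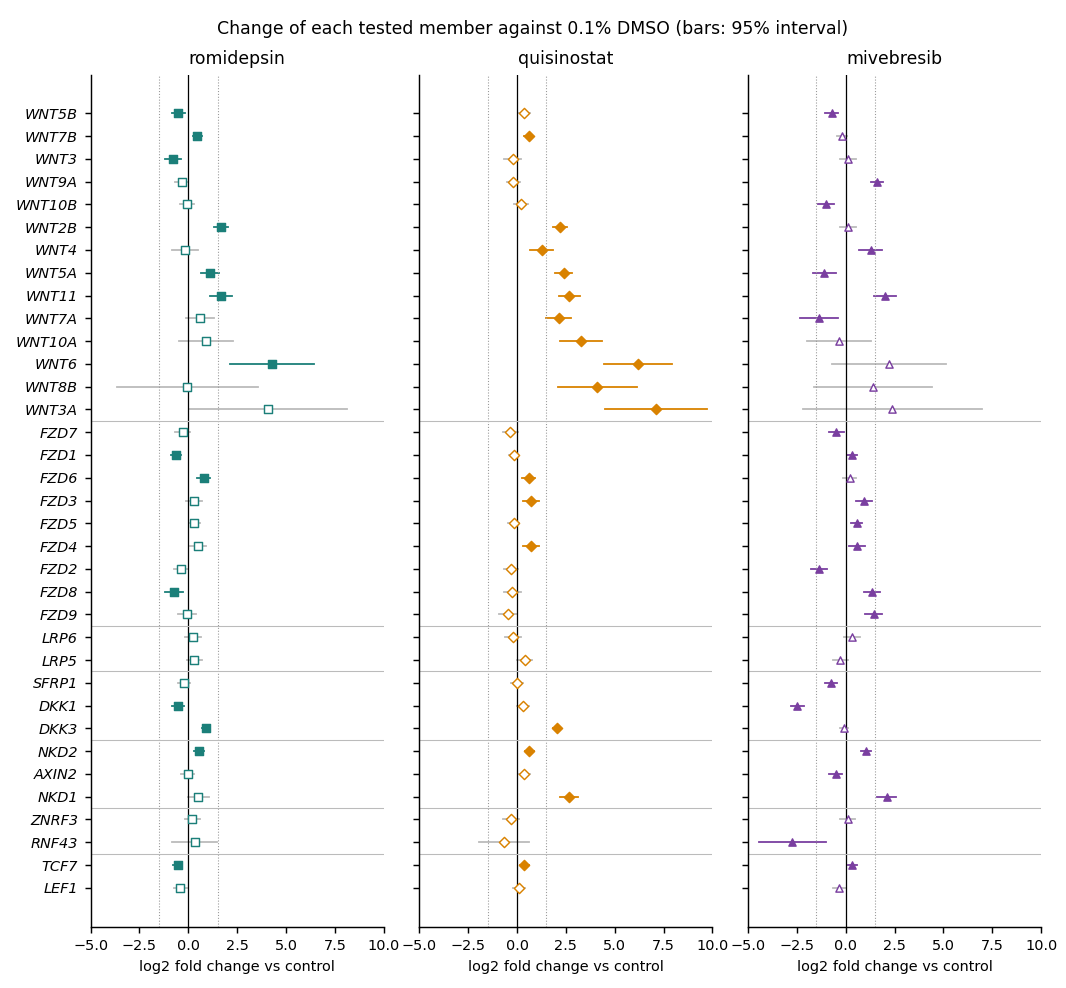
log2 FC of each of the 35 tested members against the control, 1 panel per drug, with 95% intervals as bars, filled symbols at an adjusted p below 0.05 and dotted lines at 1.5 in either direction. Filled symbols lie only to the right of 0 with quisinostat, and on both sides with romidepsin and mivebresib; the fitted values of WNT3A, WNT6 and WNT8B depend on the prior count, because the control had at most 2 counts of each.

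The 4 ligands that were nearly silent in the control were tested only because a drug group held counts of them, so a difference from the control was fixed by the filter and they are described without a test. WNT6, a ligand of epithelial development, had 2 and 0 counts in the control, 63 and 120 with quisinostat, 25 and 21 with romidepsin, and 8 and 2 with mivebresib. The libraries of both HDAC inhibitors lay above all control and mivebresib libraries. The ratio to the control was 80.8 with quisinostat (95% counting interval 22.0 to 672), 22.0 with romidepsin (interval 5.75 to 187) and 5.04 with mivebresib (interval 1.07 to 47.3). Its neighbour on chromosome 2, WNT10A, a ligand needed for tooth and skin appendages, had 4 and 5 counts in the control, 51 and 50 with quisinostat, 8 and 10 with romidepsin, and 1 and 6 with mivebresib. The quisinostat libraries were far the highest, with a log2 FC of 3.27 ± 0.47 (SE), 9.67-fold. The romidepsin libraries also lay above all control and mivebresib libraries, on few counts, at 0.92 ± 0.60.

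WNT3A, a classic activator of beta-catenin signalling, had 0 counts in both control libraries, 20 and 17 with quisinostat, 3 and 1 with romidepsin, and 1 and 0 with mivebresib. The quisinostat libraries were at least 10.9-fold higher than the 3 counts that an empty control group allows. WNT8B, a ligand of the developing forebrain, had 1 and 0 counts in the control, 12 in each quisinostat library, 1 and 0 with romidepsin, and 1 and 2 with mivebresib. Only quisinostat lifted it above a few counts, at a ratio of 21.2 (interval 3.45 to 871).

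Several ligands with measurable control levels also rose with the HDAC inhibitors. WNT11, which acts mainly through polarity signalling, had 19 and 21 counts in the control, 144 and 147 with quisinostat, 76 and 59 with romidepsin, and 70 and 92 with mivebresib. All 6 drug libraries lay above both controls: the log2 FC was 2.67 ± 0.23 with quisinostat (adjusted p = 3.6e-05), 1.68 ± 0.25 with romidepsin (adjusted p = 0.0018) and 2.02 ± 0.25 with mivebresib (adjusted p = 0.00027). WNT2B, a ligand of lung and eye development, had 50 and 59 counts in the control, 286 and 273 with quisinostat, 193 and 168 with romidepsin, and 60 and 57 with mivebresib. It rose with both HDAC inhibitors, by a log2 FC of 2.17 ± 0.16 (4.52-fold, adjusted p = 1.3e-05) and 1.66 ± 0.16 (3.16-fold, adjusted p = 0.00023), and mivebresib gave 0.11 (adjusted p = 0.64). WNT2B shares 2661 exonic bases with ST7L on the opposite strand, and ST7L moved by -0.28 with quisinostat and 0.27 with romidepsin (adjusted p = 0.15 and 0.20).

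WNT5A and WNT7A moved in opposite directions with the 2 drug classes. WNT5A, the best known ligand of beta-catenin-independent signalling and of melanoma cell movement, had 38 and 50 counts in the control, 244 and 276 with quisinostat, 107 and 92 with romidepsin, and 20 and 21 with mivebresib. The 4 groups did not overlap. The log2 FC was 2.38 ± 0.19 with quisinostat (5.20-fold, adjusted p = 2.1e-05), 1.11 ± 0.20 with romidepsin (2.16-fold, adjusted p = 0.0042) and -1.09 ± 0.25 with mivebresib (2.12-fold lower, adjusted p = 0.0077). WNT7A, a ligand of limb and neural development, had 11 and 13 counts in the control, 65 and 56 with quisinostat, 18 and 20 with romidepsin, and 4 and 5 with mivebresib. It rose with quisinostat, at 2.14 ± 0.28 (adjusted p = 0.00031), and its log2 FC was 0.59 ± 0.32 with romidepsin (adjusted p = 0.20) and -1.38 ± 0.42 with mivebresib (adjusted p = 0.026). The fall of WNT7A with mivebresib was lost on leaving out control replicate 1 or 2, quisinostat replicate 1 or mivebresib replicate 1 or 2, at adjusted p-values of 0.051 to 0.11.

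Mivebresib raised WNT9A and WNT4. WNT9A, a ligand of joint and craniofacial development, had 91 and 93 counts in the control, 261 and 291 with mivebresib, 90 and 92 with quisinostat, and 81 and 71 with romidepsin. Only the mivebresib libraries were high, at a log2 FC of 1.59 ± 0.14 (3.02-fold, adjusted p = 4.3e-05), against -0.20 with quisinostat and -0.34 with romidepsin (adjusted p = 0.30 and 0.12). WNT4, known from gonad and kidney development, had 58 and 48 counts in the control, 143 and 113 with mivebresib, 167 and 123 with quisinostat, and 60 and 38 with romidepsin. It rose with mivebresib, at 1.28 ± 0.26 (adjusted p = 0.0041), and with quisinostat, at 1.27 ± 0.26 (adjusted p = 0.0035), and romidepsin gave -0.18 (adjusted p = 0.67).

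Among the ligands most abundant in the control, WNT5B, WNT7B, WNT3 and WNT10B, the largest change was that of WNT10B with mivebresib. WNT5B, the most abundant, had 335 and 434 counts in the control, 245 and 222 with mivebresib, 295 and 272 with romidepsin, and 551 and 559 with quisinostat. It fell with mivebresib by 0.71 on the log2 scale (adjusted p = 0.0045) and with romidepsin by 0.51 (adjusted p = 0.030), and quisinostat gave 0.35 (adjusted p = 0.065). WNT10B, known for its action on fat and bone precursors, had 87 and 82 counts in the control and 43 and 40 with mivebresib, a log2 FC of -1.01 ± 0.17 (adjusted p = 0.0016), with 0.22 and -0.08 for quisinostat and romidepsin (adjusted p = 0.26 and 0.72). WNT3 fell with romidepsin, from 139 and 171 counts to 109 and 79, by 0.79 on the log2 scale (adjusted p = 0.015), and the adjusted p was 0.095 without romidepsin replicate 2. WNT7B rose with quisinostat by 0.59 and with romidepsin by 0.46 on the log2 scale (adjusted p = 0.0016 and 0.012), and mivebresib gave -0.18 (adjusted p = 0.21). The 19 ligands summed to 74.1 and 74.6 CPM in the quisinostat libraries, above every other library, and to 46.8 and 42.4 with romidepsin and 43.8 in each mivebresib library, of which the romidepsin range overlapped the control.

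**Figure D3:**
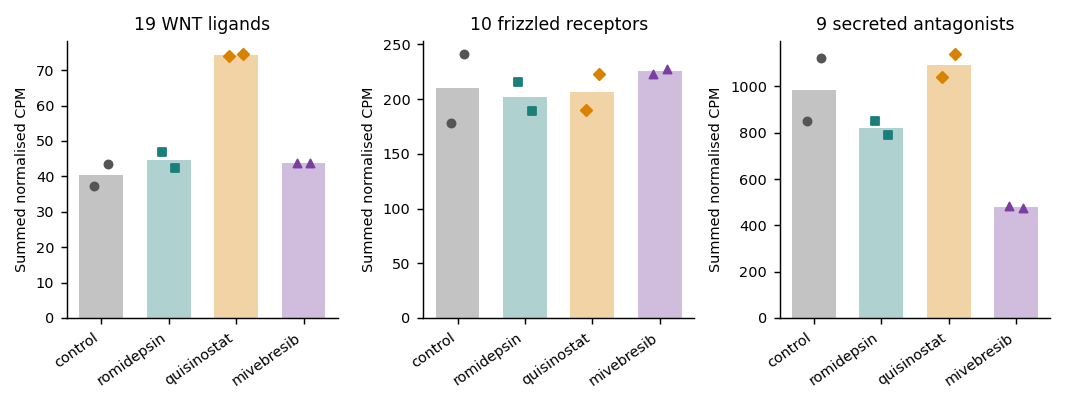
Summed normalised CPM of the ligands, frizzled receptors and secreted antagonists (linear axes from 0), with bars at the mean and points for the 2 libraries of each group. The ligand sum is highest in the quisinostat libraries, the antagonist sum is lowest in the mivebresib libraries, and the frizzled sums of all drug libraries lie within the range of the 2 control libraries.

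Among the 3 secreted antagonists tested, DKK1 and DKK3 changed most. DKK1, which blocks LRP5 and LRP6, had 6831 and 8910 counts in the control, 1415 and 1414 with mivebresib, 5955 and 5365 with romidepsin, and 10569 and 11365 with quisinostat. The groups did not overlap in counts, and the mivebresib libraries were lowest. The log2 FC was -2.47 ± 0.14 with mivebresib (5.53-fold lower, adjusted p = 7.0e-06), -0.54 ± 0.14 with romidepsin (adjusted p = 0.017) and 0.30 ± 0.13 with quisinostat (adjusted p = 0.095). The fall with romidepsin was at an adjusted p of 0.062 without romidepsin replicate 1, 0.11 without romidepsin replicate 2 and 0.079 in a fit of the 4 libraries of that comparison. DKK1 lies at chr10:52314296-52318042 in GENCODE 29.

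DKK3, a divergent family member that is often silenced in tumours, had 430 and 416 counts in the control, 1951 and 1986 with quisinostat, 884 and 792 with romidepsin, and 409 and 377 with mivebresib. Both HDAC inhibitor groups stood above the control. The log2 FC was 2.04 ± 0.09 with quisinostat (4.11-fold, adjusted p = 1.8e-06) and 0.92 ± 0.09 with romidepsin (1.89-fold, adjusted p = 0.00027), while mivebresib gave -0.09 (adjusted p = 0.45). SFRP1, which sequesters WNT ligands, had 16704 and 21417 counts in the control, 11350 and 11442 with mivebresib, 17916 and 16793 with romidepsin, and 20388 and 22413 with quisinostat. It fell with mivebresib, by 0.73 ± 0.13 (SE) on the log2 scale (1.66-fold lower, adjusted p = 0.0023), and the log2 FC was -0.20 with romidepsin and -0.02 with quisinostat (adjusted p = 0.28 and 0.93). The 9 antagonists together summed to 482 and 476 CPM with mivebresib, below the 849 and 1123 of the control libraries.

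Of the 9 frizzled receptors tested, 6 rose with mivebresib (66.7%, against 22.2% of all genes) and 2 fell (22.2%, against 24.1%), 3 rose with quisinostat (33.3%, against 28%) and 0 fell (against 25.1%), and 1 rose with romidepsin (11.1%, against 15.2%) and 2 fell (22.2%, against 15.8%). The drugs were not compared on these counts. FZD9, a receptor of the haematopoietic and nervous systems, had 122 and 114 counts in the control, 338 and 291 with mivebresib, 78 and 117 with quisinostat, and 117 and 119 with romidepsin. FZD8 had 143 and 183 counts in the control, 423 and 395 with mivebresib, 141 and 170 with quisinostat, and 117 and 86 with romidepsin. For both genes the mivebresib libraries were the highest, at a log2 FC of 1.43 ± 0.18 for FZD9 (2.69-fold, adjusted p = 0.00038) and 1.34 ± 0.18 for FZD8 (2.53-fold, adjusted p = 0.00048). FZD8 fell with romidepsin by 0.75 on the log2 scale (adjusted p = 0.024), and its adjusted p was 0.062 without control replicate 2, 0.14 without romidepsin replicate 2 and 0.080 in a fit of the 4 libraries of that comparison.

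FZD2, a receptor tied to cell migration, had 315 and 322 counts in the control, 118 and 126 with mivebresib, 242 and 341 with quisinostat, and 266 and 254 with romidepsin. It was the frizzled receptor that fell most with mivebresib, at -1.37 ± 0.17 (2.59-fold lower, adjusted p = 0.00030). FZD7, by far the most abundant receptor, had 2379 and 3365 counts in the control and 1962 and 2127 with mivebresib, a log2 FC of -0.48 (adjusted p = 0.044), with -0.35 for quisinostat and -0.29 for romidepsin (adjusted p = 0.11 and 0.22). FZD3 rose with mivebresib by 0.95 and with quisinostat by 0.71 on the log2 scale (adjusted p = 0.0024 and 0.0084), and FZD5 rose with mivebresib by 0.57 (adjusted p = 0.0062). FZD6 rose with romidepsin by 0.78 and with quisinostat by 0.60 (adjusted p = 0.0044 and 0.0072). FZD1, with 623 and 699 control counts, was at 450 and 445 with romidepsin and 828 and 799 with mivebresib, a fall by 0.63 on the log2 scale (adjusted p = 0.0037) and a rise of 0.31 (adjusted p = 0.043). FZD4 rose with quisinostat by 0.70 and with mivebresib by 0.56 (adjusted p = 0.011 and 0.032). FZD4 shares 1399 exonic bases with PRSS23 on the opposite strand, which moved by 1.10 with quisinostat and -0.50 with mivebresib, and how the counting treated strand is not given in the sources used here.

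The co-receptors LRP5 and LRP6, which pair with frizzled receptors, did not pass the threshold against the control with any drug. LRP6 had 1345 and 1937 counts in the control, 1547 and 1717 with quisinostat, 2205 and 1906 with romidepsin, and 1855 and 2275 with mivebresib, and LRP5 had 452 and 637, 759 and 872, 725 and 680, and 408 and 491 in the same order. The widest 95% intervals were -0.60 to 0.22 for LRP6 with quisinostat and -0.67 to 0.13 for LRP5 with mivebresib. Others of similar width reached further up, at 0.012 to 0.79 for LRP5 with quisinostat and -0.071 to 0.75 for LRP6 with mivebresib. The control libraries decided these values. Without control replicate 2, LRP6 was higher with romidepsin (0.57, adjusted p = 0.0053) and with mivebresib (0.65, adjusted p = 0.0018), and without control replicate 1 it was lower with quisinostat (-0.45, adjusted p = 0.012). LRP5 was higher without control replicate 2 with romidepsin (0.59, adjusted p = 0.0047) and quisinostat (0.69, adjusted p = 0.0012), and lower without control replicate 1 with mivebresib (-0.51, adjusted p = 0.0082).

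NKD1 and NKD2, which bind dishevelled and dampen the signal, were the feedback genes that rose. NKD1 had 23 and 19 counts in the control, 153 and 154 with quisinostat, 82 and 96 with mivebresib, and 29 and 34 with romidepsin. The groups did not overlap, and the log2 FC was 2.68 ± 0.20 with quisinostat (6.42-fold, adjusted p = 1.6e-05), 2.09 ± 0.21 with mivebresib (4.26-fold, adjusted p = 9.7e-05) and 0.52 ± 0.24 with romidepsin (adjusted p = 0.14). NKD2 had 285 and 250 counts in the control, 524 and 565 with mivebresib, 494 and 440 with quisinostat, and 397 and 420 with romidepsin. All drug libraries were above the control, and NKD2 was 1 of 4 members past the threshold with every drug, with WNT11, WNT5A and TCF7: its log2 FC was 1.04 ± 0.11 with mivebresib (adjusted p = 0.00010), 0.62 ± 0.11 with quisinostat (adjusted p = 0.0013) and 0.55 ± 0.11 with romidepsin (adjusted p = 0.0059).

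AXIN2, a scaffold of the beta-catenin destruction complex and a widely used readout of pathway activity, passed the threshold with mivebresib alone. It had 106 and 110 counts in the control, 76 and 74 with mivebresib, 152 and 160 with quisinostat, and 106 and 115 with romidepsin. The quisinostat libraries were highest and the mivebresib libraries lowest. The log2 FC was -0.51 ± 0.15 with mivebresib (adjusted p = 0.021), 0.35 ± 0.14 with quisinostat (adjusted p = 0.062) and -0.03 ± 0.14 with romidepsin (adjusted p = 0.88). The fall of AXIN2 with mivebresib was at an adjusted p of 0.072 without control replicate 2, 0.060 without mivebresib replicate 1, 0.090 without mivebresib replicate 2 and 0.075 with DESeq2, and its value with quisinostat turned to -0.30 with quantile normalization in limma-voom. AXIN2 shares 1316 exonic bases with the protein-coding gene AC004805.1 on its own strand.

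RNF43 and ZNRF3, which mark frizzled receptors for removal, differed in level. RNF43 had 13 and 15 counts in the control, 4 and 0 with mivebresib, 8 and 12 with quisinostat, and 17 and 20 with romidepsin. The mivebresib libraries were lowest, at a log2 FC of -2.72 ± 0.76 (adjusted p = 0.018), which without mivebresib replicate 2 was -1.76 (adjusted p = 0.066). RNF43 shares 4326 exonic bases on its strand with the protein-coding gene AC004687.2. ZNRF3 had 420 and 598 counts in the control, 433 and 498 with quisinostat, 612 and 623 with romidepsin, and 499 and 581 with mivebresib, and did not pass the threshold with any drug (log2 FC of -0.31, 0.21 and 0.09). Without control replicate 2 it was higher with romidepsin (0.51, adjusted p = 0.0083) and mivebresib (0.39, adjusted p = 0.025), and without control replicate 1 it was lower with quisinostat (-0.57, adjusted p = 0.0028).

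The nuclear factors LEF1 and TCF7, which bind beta-catenin on DNA, changed by less than 0.6 on the log2 scale. TCF7 had 562 and 509 counts in the control, 766 and 798 with quisinostat, 703 and 645 with mivebresib, and 359 and 406 with romidepsin. It was the member that changed with every drug but fell only with romidepsin, with a log2 FC of -0.55 ± 0.10 (adjusted p = 0.0050) against 0.37 ± 0.10 with quisinostat (adjusted p = 0.014) and 0.34 ± 0.10 with mivebresib (adjusted p = 0.021). These calls were lost without romidepsin replicate 1 (adjusted p = 0.055), without quisinostat replicate 2 (0.094), and without control replicate 2 or mivebresib replicate 1 (0.053 and 0.13). TCF7 shares 210 exonic bases on the opposite strand with SKP1, which moved by 0.55 with mivebresib, 0.02 with quisinostat and -0.18 with romidepsin. LEF1 had 454 and 347 counts in the control, 528 and 440 with quisinostat, 310 and 321 with romidepsin, and 331 and 301 with mivebresib, and did not pass the threshold (log2 FC of 0.09, -0.41 and -0.33, adjusted p = 0.59, 0.062 and 0.095). Without control replicate 2, LEF1 was lower with romidepsin (-0.57, adjusted p = 0.0068) and mivebresib (-0.49, adjusted p = 0.012). Compared directly, LEF1 was higher with quisinostat than with romidepsin, by 0.50 on the log2 scale (adjusted p = 0.025).

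At the same 40 nM and 24 h, quisinostat and romidepsin differed from each other in 19 of the 35 members (54.3%, against 35.6% of all genes), by the quasi-likelihood test of edgeR, adjusted over all genes. Quisinostat was higher in 17 (against 21% of all genes) and lower in 2 (against 14.6%), FZD5 and ZNRF3. Without the 4 ligands that passed the filter through a drug group, 13 of 31 were higher and 2 lower, and of the other 10 ligands 7 were higher and 0 lower. The differences included 2.17 ± 0.19 for NKD1 (adjusted p = 0.00014), 1.12 ± 0.09 for DKK3 (adjusted p = 0.00010), 1.27 ± 0.17 for WNT5A (adjusted p = 0.00089), 1.45 ± 0.26 for WNT4 (adjusted p = 0.0037), 1.55 ± 0.26 for WNT7A (adjusted p = 0.0026) and 0.92 ± 0.10 for TCF7 (adjusted p = 0.00040). DKK1 was higher with quisinostat by 0.84 ± 0.14 (adjusted p = 0.0022). Of the 16 members that did not pass, 15 had a 95% interval of the difference within 1 on the log2 scale in either direction, and that of RNF43 ran from -2.20 to 0.22. Leaving out romidepsin replicate 2 left 10 members that differed.

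Mivebresib, which was given at a higher concentration and acts on other proteins, differed from quisinostat in 27 members (77.1%, against 57.7% of all genes), higher in 7 (against 26.2%) and lower in 20 (against 31.5%), and from romidepsin in 24 (68.6%, against 48.9%), higher in 10 (against 23.7%) and lower in 14 (against 25.2%). Without the 4 ligands that passed the filter through a drug group, 7 of 31 were higher and 16 lower than with quisinostat, and 10 higher and 13 lower than with romidepsin. Of the other 10 ligands, 7 were lower with mivebresib than with quisinostat and WNT9A alone was higher, by 1.79 ± 0.14 (adjusted p = 1.5e-05). The log2 difference, mivebresib minus quisinostat, was -3.47 ± 0.21 for WNT5A (adjusted p = 4.7e-06) and -3.52 ± 0.33 for WNT7A (adjusted p = 4.5e-05). All 3 tested antagonists were lower with mivebresib than with either HDAC inhibitor, DKK1 with a log2 difference of -2.76 ± 0.15 to quisinostat (adjusted p = 2.3e-06) and -1.92 ± 0.14 to romidepsin (adjusted p = 1.8e-05). FZD8 and FZD9 were higher with mivebresib than with quisinostat, by 1.59 ± 0.18 and 1.88 ± 0.19 (adjusted p = 0.00013 and 6.1e-05).

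**Figure D4:**
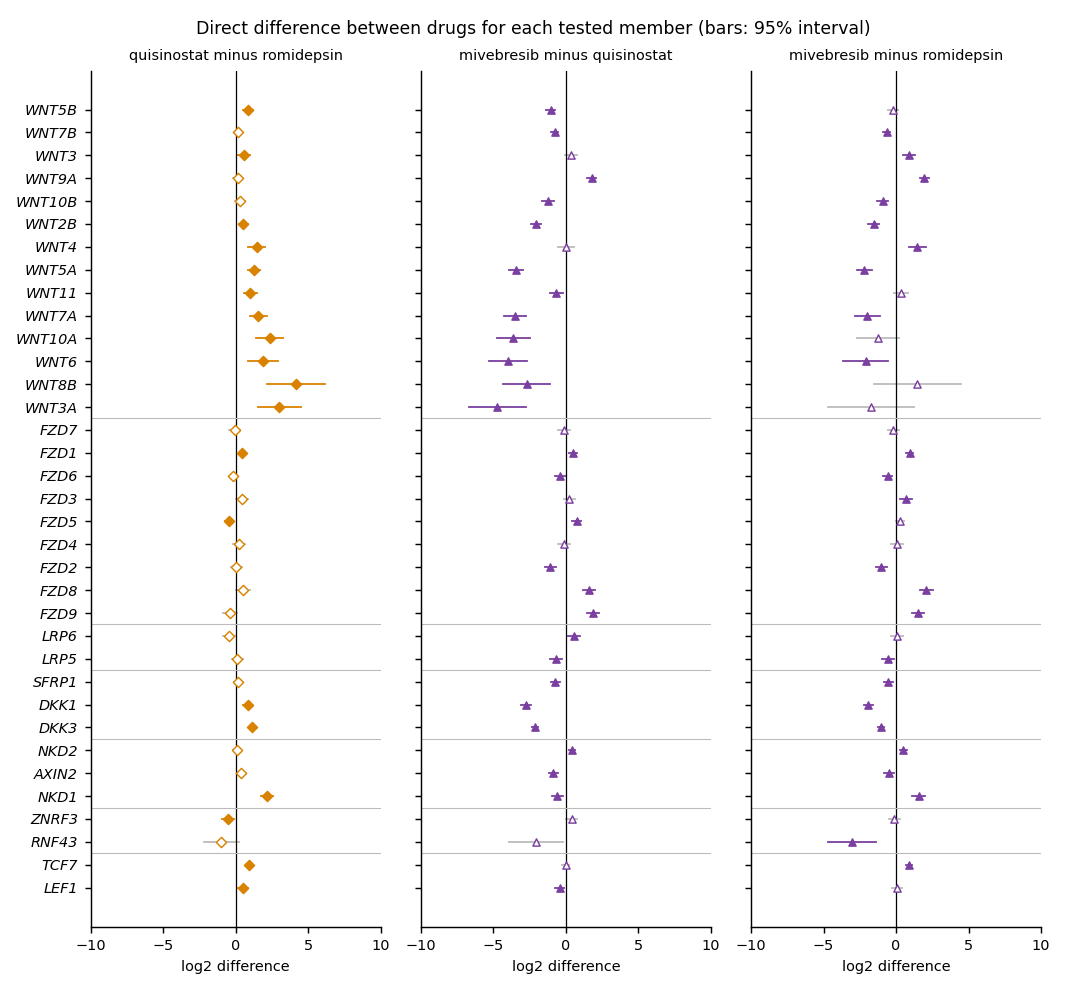
Direct log2 differences between drugs for the 35 tested members, with 95% intervals as bars and filled symbols at an adjusted p below 0.05. In the first panel most filled symbols lie to the right, higher with quisinostat, and in the second most ligands and all antagonists lie to the left, lower with mivebresib than with quisinostat; the fitted values of WNT3A and WNT8B depend on the prior count.

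Beyond the members, 75 other genes of the pathway were tested in 5 lists. Some of them, such as RSPO1, ROR2 and ASCL2, had too few control counts to pass the filter on their own and passed through drug libraries. The counts for the lists include such genes and were not recomputed without them. With quisinostat 30 rose (40%, against 28% of all genes) and 17 fell (22.7%, against 25.1%), with romidepsin 13 rose (17.3%, against 15.2%) and 6 fell (8%, against 15.8%), and with mivebresib 18 rose (24%, against 22.2%) and 20 fell (26.7%, against 24.1%). In either direction, 47 changed with quisinostat (62.7%, against 53.2% of all genes), 19 with romidepsin (25.3%, against 31%) and 38 with mivebresib (50.7%, against 46.2%). Without control replicate 2, 34 of these genes changed with romidepsin, without romidepsin replicate 1 there were 9, and without romidepsin replicate 2 there were 11. With mivebresib, 22 changed without mivebresib replicate 1 and 25 without mivebresib replicate 2.

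In the list of secretion and extracellular genes, 11 of 16 rose with quisinostat (68.8%, against 28% of all genes) and 0 fell (against 25.1%), 4 rose with romidepsin (25%, against 15.2%) and 0 fell (against 15.8%), and 2 rose (12.5%, against 22.2%) and 4 fell (25%, against 24.1%) with mivebresib. RSPO4, an R-spondin that protects frizzled receptors from RNF43 and ZNRF3, had 13 and 18 counts in the control and 181 and 158 with quisinostat, a log2 FC of 3.26 ± 0.27 (adjusted p = 2.6e-05), and rose with romidepsin by 1.37 ± 0.31 (adjusted p = 0.011), which without romidepsin replicate 2 was 1.06 (adjusted p = 0.073). RSPO1, another R-spondin, had 1 and 0 counts in the control and 24 and 21 with quisinostat. It was tested only through the quisinostat group, so its rise, counted among the 11, was fixed by the filter. LGR4, a receptor of R-spondins, rose with mivebresib from 712 and 1011 counts to 2400 and 2745, by 1.59 ± 0.17 on the log2 scale (adjusted p = 0.00013), while TRABD2B, an enzyme that inactivates WNT proteins, fell from 20 and 9 counts to 2 in each library (log2 FC of -2.77 ± 0.61, adjusted p = 0.0059). NOTUM, another such enzyme, had 17 and 7 counts in the control and 2 and 5 with mivebresib, a log2 FC of -1.73 ± 0.61 (adjusted p = 0.047) that ran from -2.49 to -0.99 with a library left out and was past the threshold only in the fit without control replicate 2.

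Among 13 receptors and polarity genes of beta-catenin-independent signalling, 5 rose and 1 fell with each HDAC inhibitor (38.5% and 7.69%, against 28% and 25.1% of all genes with quisinostat and 15.2% and 15.8% with romidepsin), and 2 rose and 5 fell with mivebresib (15.4% and 38.5%, against 22.2% and 24.1%). ROR2, a receptor for WNT5A, had 0 and 1 counts in the control, 46 and 43 with quisinostat, 3 and 5 with romidepsin, and 0 in both mivebresib libraries. It was tested only through the quisinostat group, so its rise, counted among the 5 with quisinostat, was fixed by the filter. VANGL2, a core polarity protein, had 295 and 350 counts in the control and 43 and 52 with mivebresib, a log2 FC of -2.75 ± 0.15 (adjusted p = 5.7e-06). PRICKLE2, another polarity protein, rose with quisinostat by 2.20 ± 0.21 and with romidepsin by 1.33 ± 0.22 on the log2 scale (adjusted p = 5.9e-05 and 0.0028), and fell with mivebresib by 1.62 ± 0.29 (adjusted p = 0.0022).

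Of 20 tested genes of the cytoplasmic list, 4 rose (20%, against 28% of all genes) and 7 fell (35%, against 25.1%) with quisinostat, 2 rose (10%, against 15.2%) and 3 fell (15%, against 15.8%) with romidepsin, and 6 rose (30%, against 22.2%) and 2 fell (10%, against 24.1%) with mivebresib. CTNNB1, which encodes beta-catenin, had 13538 and 14326 counts in the control and 9225 and 9445 with quisinostat, a log2 FC of -0.76 ± 0.10 (adjusted p = 0.00036), with 0.15 for romidepsin and -0.04 for mivebresib (adjusted p = 0.28 and 0.74). DACT3, a dishevelled antagonist, rose with every drug, by 1.93 with quisinostat, 0.94 with romidepsin and 0.82 with mivebresib (adjusted p = 1.9e-05, 0.0030 and 0.0032). Of 15 nuclear co-factors, 4 rose (26.7%, against 28%) and 6 fell (40%, against 25.1%) with quisinostat, 1 rose and 1 fell with romidepsin (6.67% each, against 15.2% and 15.8%), and 4 rose (26.7%, against 22.2%) and 7 fell (46.7%, against 24.1%) with mivebresib. TCF7L2, a DNA-binding partner of beta-catenin, fell with mivebresib by 0.55 ± 0.12 on the log2 scale (adjusted p = 0.0069, and 0.054 without mivebresib replicate 1) and TCF7L1 by 1.73 ± 0.25 (adjusted p = 0.00067), while TLE4, a co-repressor, rose by 1.42 ± 0.13 (adjusted p = 5.1e-05).

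Of 11 tested genes listed as beta-catenin targets, 6 rose (54.5%, against 28% of all genes) and 3 fell (27.3%, against 25.1%) with quisinostat. With romidepsin 1 rose and 1 fell (9.09% each, against 15.2% and 15.8%). With mivebresib 4 rose (36.4%, against 22.2%) and 2 fell (18.2%, against 24.1%). The 11 include SP5, ASCL2 and CDX2, with 16 and 8, 4 and 1, and 9 and 10 control counts. They passed the filter only through drug libraries, so the share that rose with quisinostat was partly fixed by the filter. EPHB2, an ephrin receptor, had 47 and 66 counts in the control, 326 and 359 with quisinostat and 140 and 127 with mivebresib, at a log2 FC of 2.42 ± 0.18 and 1.25 ± 0.19 (adjusted p = 1.6e-05 and 0.00094). BMP4, a growth factor of the neural crest, had a log2 FC of -2.86 ± 0.24 with mivebresib, -1.15 ± 0.20 with quisinostat and -0.71 ± 0.19 with romidepsin (adjusted p = 3.9e-05, 0.0015 and 0.026), of which the last was at an adjusted p of 0.080 without control replicate 1, 0.14 without romidepsin replicate 1 and 0.079 without romidepsin replicate 2. MYC had a log2 FC of -0.71 with quisinostat, 0.24 with romidepsin and 0.78 with mivebresib (adjusted p = 7.4e-05, 0.034 and 5.6e-05), and its romidepsin value missed the threshold in 6 of 8 fits that left out a library, all but those without a control library. In the same libraries the melanocyte regulators MITF and SOX10 fell. MITF fell by 1.40 with quisinostat and 1.47 with mivebresib, and did not pass the threshold with romidepsin (log2 FC of -0.22). SOX10 fell by 0.92, 1.93 and 0.39 with quisinostat, mivebresib and romidepsin. The last had a log2 FC of -0.31, short of the threshold, without romidepsin replicate 1. Other melanocyte markers did not all follow. With quisinostat, MLANA and GPR143 fell (log2 FC of -1.05 and -0.58), but PMEL, TYRP1, SLC45A2, TYR, S100A1 and S100B did not pass the threshold. Their log2 FC was -0.01, -0.25, -0.25, 0.31, -0.24 and 0.35. With mivebresib, MLANA, GPR143, SLC45A2, PMEL and S100A1 fell (log2 FC of -1.33, -0.98, -1.52, -0.51 and -0.72). TYR, TYRP1 and S100B did not pass the threshold with mivebresib (log2 FC of -0.72, -0.19 and -0.25). None of these other markers passed it with romidepsin. The part of these falls in the changes of the WNT members was not tested.

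**Figure D5:**
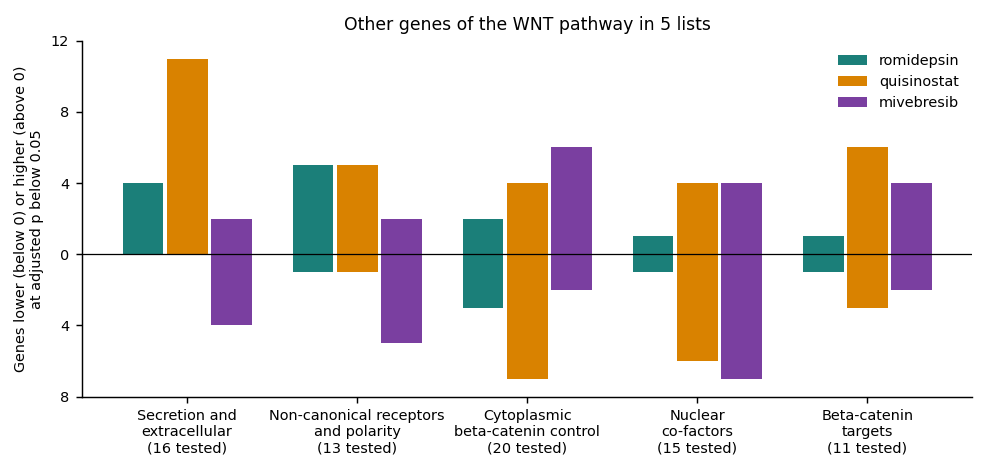
Number of other pathway genes higher (above 0) and lower (below 0) at an adjusted p below 0.05, for each of 5 lists and each drug. The tallest bar is that of the 11 secretion and extracellular genes that rose with quisinostat, where no bar extends below 0. The bars include genes that passed the count filter only through drug libraries.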

How the data were processed

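RNA of 8 MP38 libraries was sequenced in paired ends with a strand-specific kit, and the authors analysed the reads through BioJupies. The authors deposited whole-number counts per gene symbol without normalization. The other deposited tables, of log10 CPM and of quantile-normalized values of unnamed scale, were not used. The submitters' notes name the hg38 build; the aligner, counter and annotation are not given in the sources used here. Groups came from the sample labels. One quasi-likelihood model of edgeR 4.0.16 (R 4.3.3) took the counts of all 8 libraries, after TMM scaling and the default low-count filter by group, with p-values adjusted by Benjamini-Hochberg over 15085 genes; the biological coefficient of variation was 0.0938. A log2 FC is given with its SE or 95% interval. The script was tested on simulated data. CPM are TMM-normalised, and RPKM used exon union lengths from GENCODE 29, which also gave coordinates and overlaps; promoter windows are from RefSeq. For genes at 0 to 3 control counts, ratios and exact intervals of the counts were computed with scipy 1.17.1, with a floor of 3 counts over the group. DESeq2 1.42.0 and limma 3.58.1 served as alternatives.

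The members, lists and alternatives were chosen with earlier results of these data known. Values per library are given for the 10 members listed by name, and for the 5 largest changes in each direction with each drug past an adjusted p of 0.05; of the other pathway lists, the 2 largest in each direction could be named, with CTNNB1, TCF7L2, MITF and SOX10. A few other values were chosen after they were seen. With 2 libraries per group, replication and not depth sets the precision. Markers of immune, endothelial, epithelial and retinal pigment cells were at or near 0 (CDH5, CD3E and KRT5 had 0 counts everywhere), except CD68 and BEST1. BEST1 had a log2 FC of 0.83 with romidepsin, 0.39 with quisinostat and -0.73 with mivebresib. LRAT, another retinal pigment marker, had 7 and 4 counts in the control and 23 and 28 with mivebresib.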

Additional observations from a re-analysis of the deposited data

How the results depend on the processing

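Counts of members were recomputed under each alternative. Those that moved by over 1.5 times were as follows. With both thresholds, limma-voom with quantile normalization gave 1 member higher with romidepsin and 1 lower with quisinostat, and at an adjusted p below 0.05 it gave 7 lower with quisinostat. A fit of the 4 libraries of a comparison left 2 members lower with romidepsin and 12 other pathway genes changed. A mean CPM of at least 1 left 6 members higher with quisinostat and 1 lower with mivebresib at both thresholds, and a log2 FC beyond 1 gave 7 higher and 6 lower with mivebresib. Leaving out each library in turn gave 6 to 14 members higher and 2 to 8 lower with romidepsin (1 to 3 and 0 to 0 at both thresholds), 13 to 20 higher and 0 to 3 lower with quisinostat (10 to 12 and 0 to 0), and 9 to 14 higher and 6 to 10 lower with mivebresib (3 to 4 and 1 to 2). The members that differed between quisinostat and romidepsin then numbered 10 to 22, between mivebresib and quisinostat 20 to 30, between mivebresib and romidepsin 19 to 26, and over the 4 groups 29 to 36. Changed pathway genes numbered 9 to 34 with romidepsin, 34 to 49 with quisinostat and 22 to 43 with mivebresib. The group of a removed library had 1 left, which was assumed to vary like the others. The filter was rerun in each such fit with that group as the smallest, so it was looser and could test more members than 35. Low-count members could then pass through a single drug library, so these ranges are not counts out of the 35. The cause of these moves was not tested beyond fewer genes or samples.

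Signs turned for 8 values outside the fits without a library, of which AMER2 with quisinostat alone had passed the threshold. AXIN2 with romidepsin was 0.040 with library size alone and 0.052 with upper-quartile factors, and LRP6 with quisinostat was 0.012 with library size alone. With quantile normalization RNF43 with romidepsin was -0.076, and AXIN2, LEF1 and AMER2 with quisinostat were -0.30, -0.045 and -0.32. CTNNB1 with mivebresib was 0.0022 with upper-quartile factors. Without a library, values that crossed 0 ran from -0.096 to 0.027 for AXIN2 and from -0.017 to 0.51 for ZNRF3 with romidepsin, from -0.45 to 0.11 for LRP6 and from -0.073 to 0.27 for LEF1 with quisinostat, and from -0.51 to 0.022 for LRP5, from -0.16 to 0.39 for ZNRF3 and from -0.14 to 0.041 for CTNNB1 with mivebresib.

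Same-numbered libraries of different groups showed little shared deviation: the correlation between groups ran from -0.16 to 0.16. With 2 libraries per group, this cannot settle whether the replicate numbers in the labels pair the samples. With a replicate block, 18 members rose with quisinostat, 8 rose and 7 fell with romidepsin, and 12 rose and 10 fell with mivebresib. In the control, the order of the 4 most abundant members was the same by RPKM and by CPM; in the drug groups it differed.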

Other observations

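Some WNT ligands lie in pairs on a chromosome in GENCODE 29. WNT6 and WNT10A, 6130 bases apart on chromosome 2, both had their highest counts in the quisinostat libraries, as described above. WNT9A and WNT3A, 59153 bases apart on chromosome 1 and read in opposite directions, differed: WNT3A had 37 counts over both quisinostat libraries and 1 over both mivebresib libraries, whereas WNT9A had 182 and 552. Of WNT10B and WNT1, 6690 bases apart on chromosome 12, WNT1 had at most 2 counts in any library while WNT10B had 82 or more in every library but those of mivebresib. Of WNT3 and WNT9B on chromosome 17, 47 bases apart, WNT9B had at most 3 counts in any library. Whether the members of a pair differ in response was not tested.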
